A study of Mus musculus with 3 samples.

Results

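The smooth muscle contractile genes described here are Acta2, Myh11, Tagln, Cnn1, Myl9, Mylk, Lmod1, Smtn, Des and Actg2. They were chosen by name, and all 10 were found among the 29907 genes named in the count tables of isolated mouse brain vessels. PolyA+ RNA was sequenced in 3 libraries, with 1 library per group and the vessels of 3 male mice pooled in each, all aged 3 months. The C57BL6 WT library came from wild-type mice of that background. The C57BL6-BALB/c WT library came from wild-type mice of the mixed background. The Cx30-/- library came from mice in which Cx30 (gene Gjb6), an astroglial gap junction protein, is deleted in every tissue. Its background is C57BL6 in the sample labels and mixed in the methods of the study, by which the mixed wild type shares its background. Which record holds is unknown, so background and deletion cannot be told apart with certainty in either comparison of that library. A pool of 3 mice has no spread between animals, and no group has a replicate library. The 1 test the counts allow therefore takes both wild types as 1 group.

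Vascular smooth muscle cells wrap arteries and arterioles and set their diameter. Calcium entering the cell activates the myosin light chain kinase, which phosphorylates the regulatory light chain and lets myosin pull on filaments of smooth muscle α-actin. Transcription of most of these genes depends on the serum response factor and its partner myocardin, which act through a short sequence called the CArG box. Pericytes, the mural cells of capillaries, share several vascular genes with smooth muscle cells but carry much less of the contractile apparatus. Since the RNA comes from whole vessels, fewer smooth muscle cells and less RNA per cell cannot be told apart.

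The promoters of these genes were searched for the CArG box, since most of the genes were higher together in both comparisons with C57BL6 WT vessels described below, which share that library. RefSeq gave a window of 250 bases before to 50 bases after the transcription start for 7 of the 10 genes (GRCm38.p6). Both strands were read at once, since the box is its own reverse complement, and a near match had 1 letter off. The windows of Acta2, Myl9 and Lmod1 held a pair of exact or near matches each, none of them overlapping. Those of Cnn1, Mylk, Smtn and Des held no such match, and each gene was searched at 1 start only. The start used for Mylk lies inside the gene, and other starts were not searched. Of 32817 promoter windows of the same length, 1.63% held an exact box, 21.1% at least 1 exact or near match and 3.70% at least 2. At least 1 match was found in 42.9% of the 7 windows here, 40% of 10 endothelial and 28.6% of 7 pericyte windows. At least 2 were found in 42.9%, 0% and 14.3% in the same order. The 3 windows are printed 5′ to 3′ on the strand of the gene, with the matches in capitals. They are chr19:34255324-34255623 on the minus strand for Acta2, chr2:156775214-156775513 on the plus strand for Myl9 and chr1:135324563-135324862 on the plus strand for Lmod1.
Acta2: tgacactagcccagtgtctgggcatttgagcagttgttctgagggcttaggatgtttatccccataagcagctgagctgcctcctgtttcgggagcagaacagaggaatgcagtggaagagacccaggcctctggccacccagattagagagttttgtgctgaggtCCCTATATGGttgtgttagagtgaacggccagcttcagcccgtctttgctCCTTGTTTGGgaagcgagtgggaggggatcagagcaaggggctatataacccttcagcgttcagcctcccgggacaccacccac
Myl9: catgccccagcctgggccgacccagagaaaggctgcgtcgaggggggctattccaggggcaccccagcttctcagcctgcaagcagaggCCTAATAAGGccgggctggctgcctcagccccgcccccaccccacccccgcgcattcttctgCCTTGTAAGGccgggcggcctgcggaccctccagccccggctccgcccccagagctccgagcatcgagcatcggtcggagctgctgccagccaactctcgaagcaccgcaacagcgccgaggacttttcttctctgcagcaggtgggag
Lmod1: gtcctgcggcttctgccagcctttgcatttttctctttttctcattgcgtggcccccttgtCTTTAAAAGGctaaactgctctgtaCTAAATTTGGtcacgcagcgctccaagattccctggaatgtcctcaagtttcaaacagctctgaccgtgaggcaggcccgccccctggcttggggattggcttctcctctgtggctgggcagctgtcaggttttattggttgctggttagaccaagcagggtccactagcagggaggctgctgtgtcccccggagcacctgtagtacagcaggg
In the Acta2 window the near matches CCCTATATGG and CCTTGTTTGG began 84 and 34 bases before the RefSeq start. Myl9 had the exact box CCTAATAAGG at 161 bases and the near match CCTTGTAAGG at 99 bases. Lmod1 had CTTTAAAAGG at 189 and CTAAATTTGG at 164 bases. A match describes the letters and does not show that a factor is bound there.

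The deposited counts summed to between 50375426 and 60725557 over the transcript rows of a library. Since a read on a shared exon was counted in each row, this sum is not a number of reads. With 1 row per gene, the sum was between 20137681 and 24157994. The transcript of the deleted gene, Gjb6, had 96 counts in the Cx30-/- library against 2899 in C57BL6 WT and 2246 in C57BL6-BALB/c WT, log2 ratios of -4.65 and -4.59, as the label of that library requires. A normalized count is the raw count of a gene's transcript row divided by a size factor of the library, which was 1.15, 0.926 and 0.953 in the same order. The 95% intervals given with ratios come from an exact binomial calculation on both raw counts and cover counting error only. The markers of smooth muscle used here are the 10 genes themselves, so their counts in every library are no separate check of the cell type. Genes of striated muscle were far lower in sum. Together, 14 of them had between 209.2 and 236.7 normalized counts per kb of transcript, against 28849.5 to 38507.6 for the contractile genes. Among the cardiac and skeletal actins, Acta1 had 56 to 92 counts, and Actc1 had 2 in C57BL6 WT, 0 in C57BL6-BALB/c WT and 5 in Cx30-/- vessels.

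Levels per length were grouped into tiers for description, and steps within a tier could be larger than those between tiers. The actin Acta2, the regulatory light chain Myl9 and Tagln were the most abundant, Myh11, Mylk, Smtn and Des were in between, and Lmod1, Cnn1 and Actg2 were the lowest in each library. Acta2 (ENSMUSG00000035783; chromosome 19 of GRCm38, 34241090 to 34255590, minus strand) encodes smooth muscle α-actin, the main thin filament protein of these cells. It had 9548.3 normalized counts per kb in C57BL6 WT, 14072.1 in C57BL6-BALB/c WT and 11606.1 in Cx30-/- vessels. On this scale it ranked 40, 17 and 35 among the 20834 to 20997 genes with at least 1 count in a library, so that few transcripts of the preparation were more abundant. Myl9 (ENSMUSG00000067818; chromosome 2, 156775420 to 156781658, plus strand) encodes the light chain whose phosphorylation switches smooth muscle myosin on. Its levels were 9394.8, 10183.3 and 11260.9 normalized counts per kb in the same order. Counting intervals of the levels of Acta2 and Myl9 overlapped in C57BL6 WT and in Cx30-/- vessels, but not in C57BL6-BALB/c WT vessels, where Acta2 was ahead. Tagln (ENSMUSG00000032085; chromosome 9, 45929619 to 45936058, minus strand), encoding the actin-binding protein SM22α, had 5536.3, 7790.2 and 7281.0 normalized counts per kb.

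In the middle tier, Myh11 (ENSMUSG00000018830; chromosome 16, 14194535 to 14291372, minus strand), the smooth muscle myosin heavy chain, had 1582.2, 2647.7 and 2402.7 normalized counts per kb in C57BL6 WT, C57BL6-BALB/c WT and Cx30-/- vessels. For Mylk (ENSMUSG00000022836; chromosome 16, 34745210 to 35002420, plus strand), encoding the myosin light chain kinase, the levels were 868.7, 1180.7 and 1251.4. Smtn (ENSMUSG00000020439; chromosome 11, 3517523 to 3540612, minus strand), encoding the actin-associated protein smoothelin, had 674.5, 935.6 and 947.9. Desmin, the intermediate filament protein encoded by Des (ENSMUSG00000026208; chromosome 1, 75360329 to 75368579, plus strand), had 601.0, 614.2 and 697.4, and differed least among the libraries. The order from Acta2 down to Des was the same in every library, and apart from Acta2 and Myl9 no neighbours in it had overlapping intervals. All genes of this tier were lowest in C57BL6 WT vessels.

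The lowest tier held Lmod1 (ENSMUSG00000048096; chromosome 1, 135324807 to 135368065, plus strand), encoding leiomodin, which nucleates actin filaments, with 300.8, 461.0 and 384.0 normalized counts per kb in the same order of libraries. Cnn1 (ENSMUSG00000001349; chromosome 9, 22099216 to 22109630, plus strand), encoding calponin, an inhibitor of the myosin ATPase on the thin filament, had 263.7, 487.6 and 289.7. These neighbours changed places, Cnn1 being ahead of Lmod1 only in C57BL6-BALB/c WT vessels, where their intervals overlapped. Actg2 (ENSMUSG00000059430; chromosome 6, 83512905 to 83536265, minus strand), the γ-actin of visceral smooth muscle, had 79.3, 135.3 and 73.2 normalized counts per kb from 121, 167 and 93 raw counts. By level per length it ranked between 10372 and 12464 among all genes of a library, far below every other contractile gene.

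**Figure D1:**
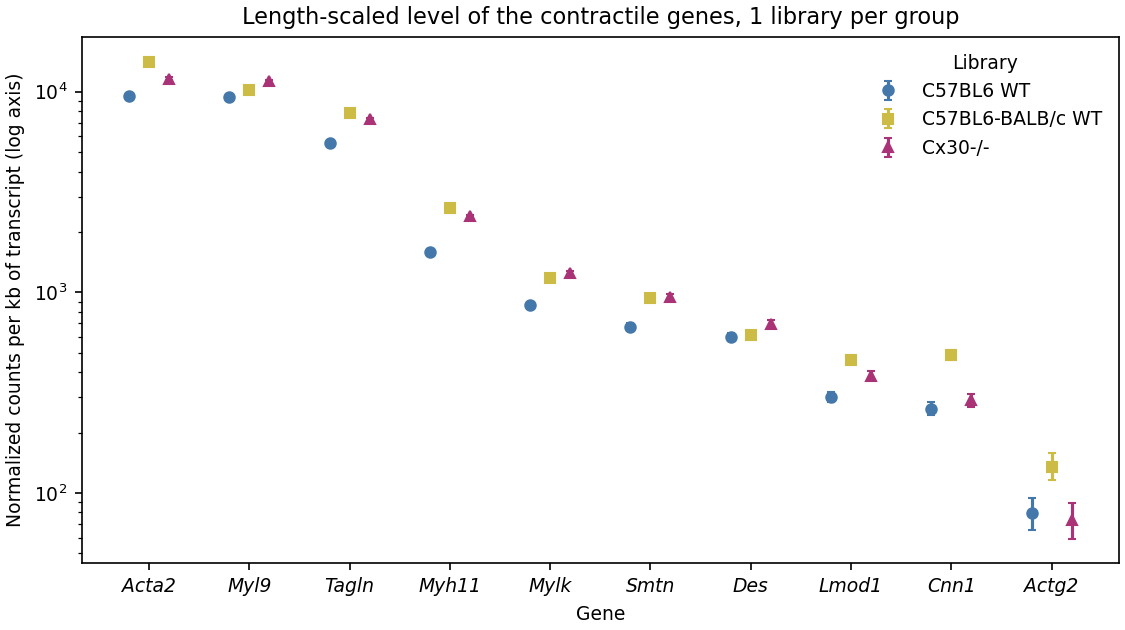
Length-scaled level of the 10 contractile genes (y axis, normalized counts per kb of transcript, log axis) in the 3 libraries, with 95% exact Poisson intervals that cover counting error only. Acta2, Myl9 and Tagln lie at 5536.3 or higher in each library and Actg2 at 135.3 or lower, and the C57BL6 WT library is the lowest for 9 of the 10 genes.

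Within a library, the share of each gene in the summed length-scaled level does not depend on the scaling between libraries. Acta2 made up 33.1% of this sum in C57BL6 WT, 36.5% in C57BL6-BALB/c WT and 32.1% in Cx30-/- vessels. Myl9 made up 32.6%, 26.4% and 31.1%, so that in the mixed wild type the share of the α-actin was larger and that of the light chain smaller. Tagln held 19.2% to 20.2% and Myh11 5.48% to 6.88%. For Acta2 and Myl9 the C57BL6 WT and Cx30-/- libraries were closer to each other than either was to C57BL6-BALB/c WT, whereas for Tagln and Myh11 the share was smallest in C57BL6 WT. For the scarce genes the shares were 1.27% for Cnn1 and 0.351% for Actg2 in C57BL6-BALB/c WT vessels, against 0.914% and 0.275% in C57BL6 WT and 0.801% and 0.202% in Cx30-/- vessels.

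**Figure D2:**
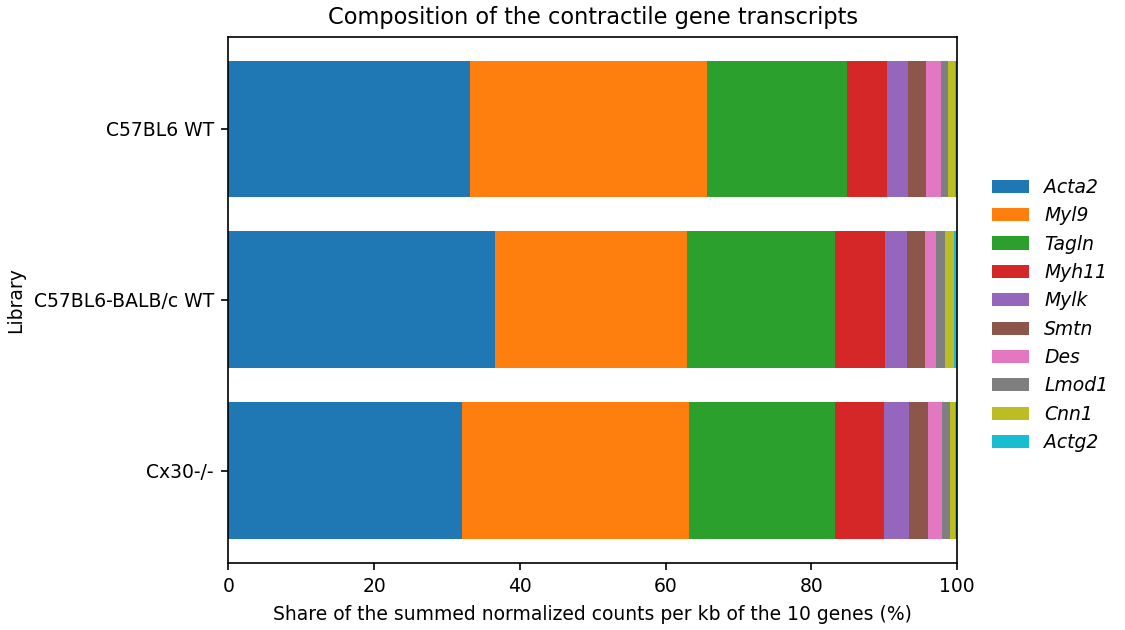
Share of each contractile gene (colours) in the summed normalized counts per kb of the 10 genes (x axis, percent) in each library (y axis). Acta2 and Myl9 fill most of each bar, and the Myl9 part is the smallest in C57BL6-BALB/c WT, at 26.4%.

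To ask whether the deletion was accompanied by a change of the contractile genes, the Cx30-/- library was first compared with C57BL6 WT vessels. Most of the genes were moderately higher in Cx30-/- vessels, led by the heavy chain Myh11, the kinase Mylk and smoothelin, while Cnn1 and Actg2 differed little. None (0) of the 10 differed 2-fold or more, while 2.67% of 14768 genes did. Genes entered this count when either library of the comparison reached 50 normalized counts. Myh11 had 10366.8 normalized counts in C57BL6 WT and 15742.5 in Cx30-/- vessels, a log2 ratio of 0.60 (95% exact interval 0.57 to 0.64). At 1.52-fold it was the only member past 1.5-fold, a difference that 10.8% of all genes reached in either direction. Mylk had 6797.1 and 9791.1 normalized counts, a log2 ratio of 0.53 (0.48 to 0.57), and Smtn a log2 ratio of 0.49 (0.41 to 0.57). Tagln, Lmod1, Acta2, Myl9 and Des followed with 0.40, 0.35, 0.28, 0.26 and 0.21. For Cnn1 the log2 ratio was 0.14 (-0.02 to 0.29) and for Actg2 -0.11 (-0.52 to 0.29), intervals that span 0. In all, 9 of the 10 genes were higher by any size, against 49.3% of all genes. The intervals of 8 lay above 0, and the share of all genes with such intervals was not computed. The median log2 ratio over the 10 was 0.32, against -0.0045 over all genes.

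Set against C57BL6-BALB/c WT vessels, the same Cx30-/- library gave another picture. Calponin and the γ-actin were lower in Cx30-/- vessels, Acta2, Lmod1, Myh11 and Tagln slightly lower, and Myl9, Mylk and Des slightly higher. Again 0 of 10 genes reached 2-fold, where 8.69% of 14883 genes did. Cnn1 had 1154.6 normalized counts in C57BL6-BALB/c WT and 686.1 in Cx30-/- vessels, a log2 ratio of -0.75 (-0.89 to -0.61). Actg2 had 180.4 and 97.6, a log2 ratio of -0.89 with a wide interval from -1.27 to -0.51, so that a 2-fold difference lay within counting error. These were the 2 members that differed 1.5-fold or more, as 28.9% of all genes did in either direction. Acta2 had 18729.9 and 15447.7 normalized counts, a log2 ratio of -0.28 (-0.31 to -0.25). The log2 ratio was -0.26 for Lmod1, -0.14 for Myh11, -0.10 for Tagln and 0.02 for Smtn. Des, with 0.18 (0.09 to 0.28), and Myl9, with 0.15 (0.11 to 0.18), were the highest. The median was -0.12, against 0.00 over all genes, and 4 of 10 genes were higher, near the 50.3% of all genes. Both comparisons use the same Cx30-/- library.

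No member was 2-fold different in the same direction against both wild types, as 1.42% of 14680 genes were. Des, Myl9 and Mylk were higher in Cx30-/- vessels than in both wild types with intervals above 0 each time, at log2 ratios between 0.08 and 0.53. For Des and Myl9 this depended on the transcript row used. Against C57BL6-BALB/c WT their other rows had -0.05 and -0.31 for Des, and 0.04, -0.07 and 0.13 for Myl9. Acta2, Myh11, Tagln and Lmod1 lay between the wild types, with all intervals off 0. The share of all genes meeting either interval rule was not computed. The counts also allow 1 test, in which the Cx30-/- library is set against both wild types as 1 genotype group by edgeR's quasi-likelihood test. Adjusted by Benjamini-Hochberg over 17565 genes, p fell under 0.05 for 0.0512% of them and for 0 of the 10 members, and ran from 0.837 for Actg2 to 0.996 for Acta2. At an unadjusted p under 0.05 there were also 0 members, against 8.68% of all genes, and DESeq2, which gave an adjusted p for 9 of the members, called 0 as well. The fitted log2 difference was -0.54 for Actg2, -0.37 for Cnn1 and 0.29 for Mylk, the extremes among the members. The only spread available to the fit is that between the wild-type libraries, which differ in background too.

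**Figure D3:**
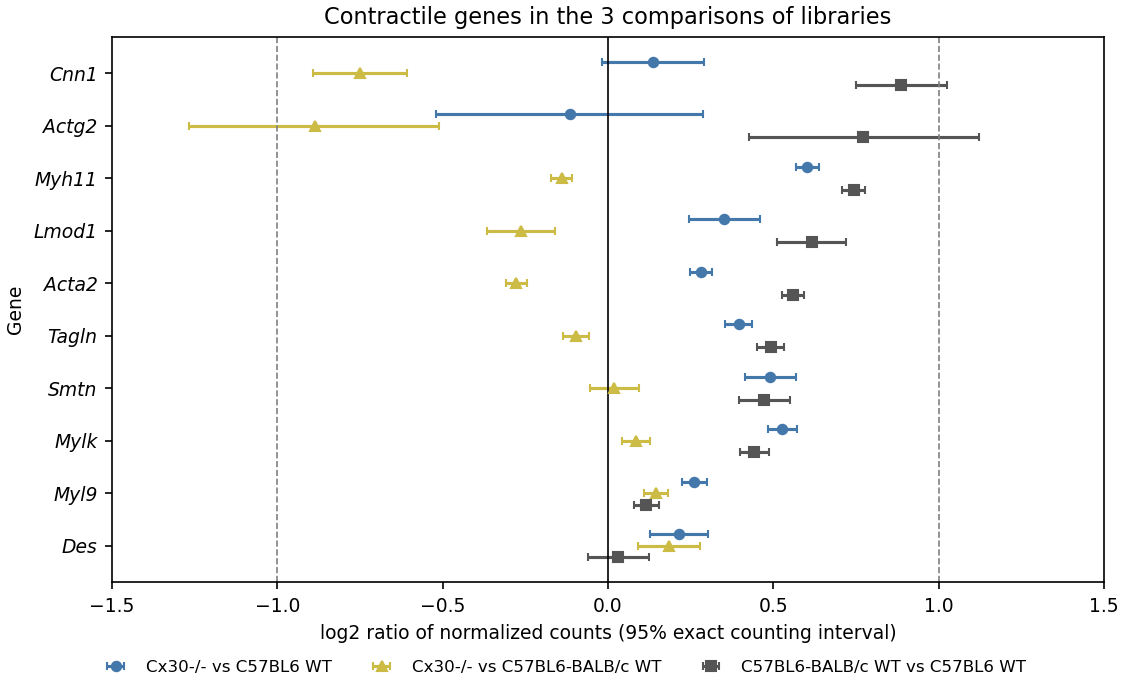
Log2 ratio of normalized counts (x axis) of the 10 contractile genes (y axis) in the 3 comparisons of libraries, with 95% exact counting intervals and dashed lines at 2-fold. Every point lies inside the 2-fold lines, and the wild-type comparison (squares) is at or above 0.03 for each gene.

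The median over the 10 genes lay farthest from 0 between the wild types, although Mylk, Smtn, Myl9, Des and Actg2 each differed more in a comparison with Cx30-/- vessels. All 10 genes were higher in C57BL6-BALB/c WT than in C57BL6 WT vessels, as 50% of all 14783 genes were, with a median log2 ratio of 0.53, against 0.00 over all genes. Cnn1 differed the most, with 624.3 and 1154.6 normalized counts in C57BL6 WT and C57BL6-BALB/c WT, a log2 ratio of 0.89 (0.75 to 1.03). Actg2 followed with 0.77 (0.43 to 1.12) and Myh11 with 0.74 (0.71 to 0.78). Lmod1 had 0.62, Acta2 0.56, Tagln 0.49, Smtn 0.47 and Mylk 0.44. The light chain and desmin were the exceptions, Myl9 with 0.12 (0.08 to 0.15) and Des with 0.03 (-0.06 to 0.12). When libraries were scaled by their total count, Des turned to -0.03. At 1.5-fold or more, 4 members were higher (Myh11, Cnn1, Lmod1 and Actg2), where 15.4% of all genes differed that much in either direction, and 0 reached 2-fold, where 3.43% did. Ordered over the 3 libraries, 9 of the 10 genes were lowest in C57BL6 WT vessels, all but Actg2, while 21.9% of the 14971 genes with 50 normalized counts in any library were. Of these 9, Acta2, Myh11, Tagln, Cnn1 and Lmod1 were highest in C57BL6-BALB/c WT, an order found for 12.8% of genes, and Myl9, Mylk, Smtn and Des in Cx30-/- vessels, an order found for 9.1%. Across all genes, which are not independent, the Spearman rho between log2 ratio and transcript length was 0.257 between the wild types, -0.241 for Cx30-/- against C57BL6-BALB/c WT and -0.092 for Cx30-/- against C57BL6 WT. The part of length in the ratios of the members was not tested.

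Markers of the other vascular cells differed in the opposite direction to the contractile genes between the wild types. Of 10 pericyte genes, 9 were lower in C57BL6-BALB/c WT than in C57BL6 WT vessels, with a median log2 ratio of -0.67, and all 10 endothelial genes were lower, with a median of -0.67. Pdgfrb, the PDGF receptor of pericytes and other mural cells, stood at 7063.4, 4352.8 and 7391.8 normalized counts in the order C57BL6 WT, C57BL6-BALB/c WT and Cx30-/-. The claudin Cldn5, a tight junction protein of endothelial cells, had 25826.1, 12121.9 and 29048.0. Cspg4 was the only pericyte gene that was higher in the mixed wild type, with 0.17. As a ratio within each library, the summed length-scaled level of the contractile genes was 1.23 times that of the pericyte genes in C57BL6 WT, 2.68 times in C57BL6-BALB/c WT and 1.46 times in Cx30-/- vessels. Over the endothelial genes it was 0.735, 1.79 and 0.771 times. Relative to C57BL6 WT vessels, these ratios were 2.19 and 2.43 times as high in C57BL6-BALB/c WT vessels, and 1.19 and 1.05 times as high in Cx30-/- vessels. Acta2 over Pdgfrb, per length, was 7.31, 17.5 and 8.49.

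Against C57BL6-BALB/c WT vessels, the pericyte list was higher in Cx30-/- vessels in 9 of 10 genes, with a median log2 ratio of 0.71, and the endothelial list in 10 of 10, with 0.85, where the contractile genes had -0.12. The 8 arterial endothelial genes, counted because smooth muscle lies around arteries, did not share the direction of the contractile genes, with 8 of 8 higher and a median of 0.68. Fibroblast genes, which lie around the same large vessels, had a median of 0.53 there and of -0.28 between the wild types. Against C57BL6 WT, medians were 0.14 for pericyte, 0.20 for endothelial, 0.29 for arterial and 0.24 for fibroblast genes, beside 0.32 for the contractile genes. Venous endothelial genes had medians of 0.41, 0.77 and -0.47 in the Cx30-/- comparisons with C57BL6 WT and C57BL6-BALB/c WT and between the wild types. Non-vascular markers differed between the libraries as well. In Cx30-/- against C57BL6 WT vessels, where the contractile genes had 0.32, the median was -0.55 for choroid plexus, -0.44 for neuron, -0.40 for oligodendrocyte, -0.23 for astrocyte and -0.20 for microglia genes. Against C57BL6-BALB/c WT the medians were 0.46, -0.79, -0.33, -0.20 and 0.10 in the same order of cell types. Between the wild types they were -1.17, 0.23, -0.37, 0.04 and -0.42. No marker in these lists was at 0 in any library. What part these shifts have in the ratios of the contractile genes was not tested.

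**Figure D4:**
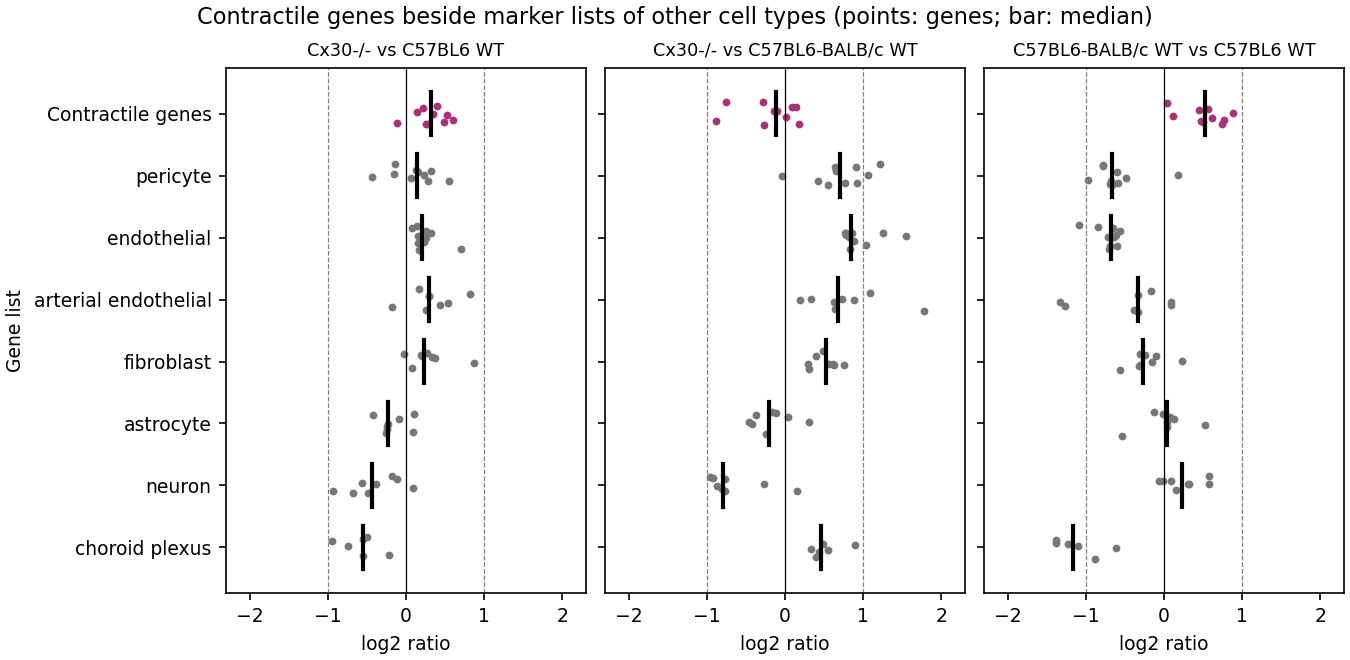
Log2 ratios (x axis) of single genes (points) and their median (bar) for the contractile genes and 7 marker lists (y axis) in the 3 comparisons, for genes past 50 normalized counts. Between the wild types the contractile genes have a median of 0.53 while the pericyte and endothelial lists both have -0.67.

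The wider apparatus of contraction was described with lists of partner genes. Among 21 genes that regulate contraction (kinases, phosphatase subunits, calcium channels and pumps), 0 differed 2-fold in any comparison. Their medians were 0.25 against C57BL6 WT, 0.01 against C57BL6-BALB/c WT and 0.23 between the wild types, the last with 16 higher. Cald1, encoding caldesmon, which binds actin and myosin, was the highest when each gene was ranked by whichever of its Cx30-/- ratios lay nearer 0, with log2 ratios of 0.39 and 0.26. Ryr2, a calcium release channel also used by neurons, was the lowest in both, with -0.41 and -0.86. Atp2a2 and Rgs4, encoding a calcium pump and a regulator of G protein signaling, were among the most abundant per length, with log2 ratios from -0.38 to 0.26 in the Cx30-/- comparisons.

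Of 20 thin filament, dense body and costamere genes, 19 were in the files under the listed symbols, and 0 differed 2-fold. They shared the pattern of the contractile genes, with 17 of 19 higher in Cx30-/- than in C57BL6 WT vessels (median 0.21), 12 of 19 lower than in C57BL6-BALB/c WT (median -0.11) and 16 of 19 higher in the mixed than in the C57BL6 wild type (median 0.39). Flna, encoding the actin cross-linker filamin A, had 19300.6, 30019.0 and 25416.0 normalized counts in C57BL6 WT, C57BL6-BALB/c WT and Cx30-/- vessels, the same order as Acta2. Flna was also the lowest by the ratio nearer 0 (0.40 and -0.24), and Synpo2, encoding an actin-binding protein, the highest, with 0.49 and 0.34. Vim, the intermediate filament protein of many vascular cells, and Csrp1, a LIM protein of the actin cytoskeleton, were among the most abundant, with 0.23 and 0.25 for Vim and 0.13 and -0.16 for Csrp1.

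Regulators of the contractile genes, among them the serum response factor and myocardin, were less uniform. Over 15 genes the median was 0.06 in Cx30-/- against C57BL6 WT vessels, 0.22 against C57BL6-BALB/c WT and 0.06 between the wild types. Past 2-fold against C57BL6-BALB/c WT were Foxs1, a forkhead factor, which was higher at 1.24, and Elk1, which competes with myocardin for the serum response factor and was lower at -1.07. Foxs1 also differed between the wild types, at -1.18. Neither passed edgeR's quasi-likelihood test of genotype, with adjusted p = 0.783 for Foxs1 and 0.411 for Elk1. Myocardin itself, Myocd, had 106, 151 and 91 raw counts in C57BL6 WT, C57BL6-BALB/c WT and Cx30-/- vessels, and log2 ratios of 0.04 and -0.77 for the Cx30-/- library and 0.82 between the wild types. Their intervals were -0.38 to 0.46, -1.16 to -0.39 and 0.45 to 1.19, and Myocd was named after its values were seen. Tbx18, a mural cell factor, was the highest by the ratio nearer 0, with 0.65 and 0.48, and Elk1 the lowest, with -0.58 against C57BL6 WT. Mrtfb, Notch3 and Csrp2, the most abundant, had log2 ratios of -0.05, 0.41 and 0.36 against C57BL6 WT and of -0.11, 0.64 and 0.71 against C57BL6-BALB/c WT.

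Relatives of the members, most of them non-muscle, went another way in the comparisons with C57BL6-BALB/c WT vessels. Of 14 such genes, 10 passed 50 normalized counts, and 7 of these were lower in C57BL6-BALB/c WT than in C57BL6 WT vessels (median -0.18), where all contractile genes were higher. Tagln2, the non-muscle counterpart of Tagln, had a log2 ratio of -0.55 between the wild types, while Tagln had 0.49. Myh9, the non-muscle myosin heavy chain, had 0.09, while Myh11 had 0.74. Cnn2 had -0.28, while Cnn1 had 0.89, and in the Cx30-/- comparisons Cnn2 was the highest by the ratio nearer 0, with 0.27 and 0.56. Actb, encoding β-actin, had -0.03, so that Acta2 per Actb, both per length, was 1.95 in C57BL6 WT, 2.93 in C57BL6-BALB/c WT and 2.17 in Cx30-/- vessels. In the Cx30-/- comparisons the medians of this list were 0.17 and 0.39, with 9 and 8 of 10 genes higher. Myh10, another non-muscle heavy chain, was the lowest by that ratio, with -0.13 and -0.25. Actg1 was the exception, 2-fold lower than in C57BL6-BALB/c WT at -1.08, from 264 and 129 raw counts, and 1.09 higher in that library than in C57BL6 WT. Its row is uncertain, since reads matching more than once in the genome were removed and this gene has many near copies. The leiomodins of striated muscle, Lmod2 and Lmod3, had at most 2 and 22 counts. Of the striated muscle genes, 5 of 14 passed the minimum, with medians of -0.32, -0.40 and 0.26. Acta1, with -0.45 and -0.68, and Ttn, encoding titin, with 0.06 and -0.40, were the lowest and the highest by the ratio nearer 0. Tnnt1, a skeletal troponin, had 0.26 and 0.01, and the myoglobin gene Mb had at most 41 raw counts.

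**Figure D5:**
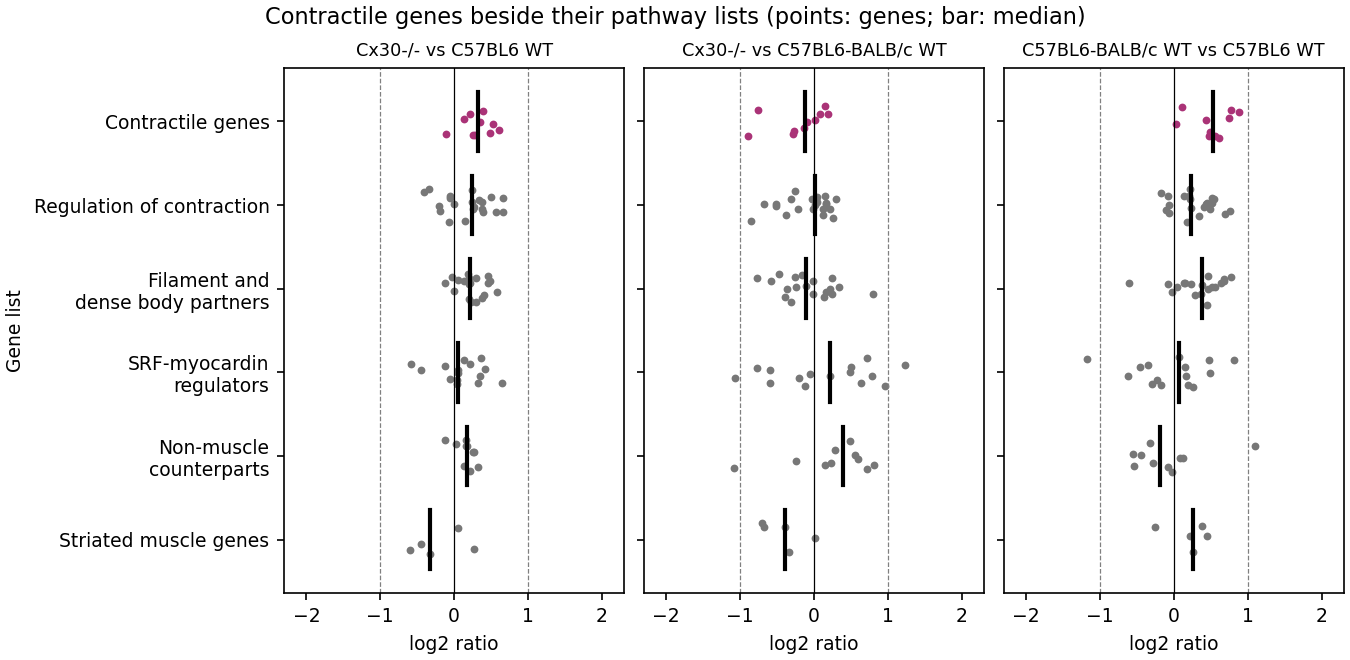
Log2 ratios (x axis) of single genes (points) and their median (bar) for the contractile genes and 5 lists of related genes (y axis) in the 3 comparisons, for genes past 50 normalized counts. Between the wild types the contractile genes have a median of 0.53 and their filament partners 0.39, while the non-muscle counterparts have -0.18.

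The values above rest on 1 transcript row per gene, and the files held 28 rows for the 10 genes. Acta2, Myh11, Tagln, Cnn1 and Lmod1 had a single row each. The 9 rows of Smtn had log2 ratios of 0.29 to 0.50 against C57BL6 WT and 0.35 to 0.73 between the wild types, and the 4 rows of Myl9 had 0.21 to 0.27 and 0.12 to 0.28. For Des, the 2 rows with over 100 counts had 0.21 to 0.29 and 0.03 to 0.34. Against C57BL6-BALB/c WT the rows of these genes straddled 0. They had -0.43 to 0.13 for Smtn, -0.07 to 0.15 for Myl9 and -0.05 to 0.18 for the same 2 rows of Des. A read on a shared exon was counted in each row, so the rows are not independent. Mylk gives rise to a long kinase, the short smooth muscle kinase and telokin, and its main row of 7824 bases does not separate them. Between 752 and 1197 bases of it had no read. The rows of Acta2, Tagln and Myl9 were covered from end to end in each library, that of Myh11 to at least 99.3%, and that of Cnn1 to 79.2% in C57BL6 WT, 68.4% in C57BL6-BALB/c WT and 67.9% in Cx30-/- vessels.

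Acta2, Myh11, Tagln, Mylk, Smtn and Des shared exact stretches of sequence with other genes, Tagln the most. Reads matching more than once in the genome were removed by the authors, so a shared stretch need not mean shared reads. Of all stretches of 50 bases, the read length, 0.352% of those of Acta2 and 0.4% of those of Myh11 occurred exactly in transcripts of other genes (GENCODE M21), and 0 of those of Actg2, Cnn1, Myl9 and Lmod1. Near-identical stretches with mismatches were not counted. The GENCODE sequences searched were longer than the counted rows for Acta2 (2035 against 1331 bases) and Tagln (1595 against 1426). For Tagln the share was 48.3%, all of it with Pcsk7 and Gm48529 on the opposite strand, whose exons overlap 985 bases of its GENCODE sequence. The library kit did not keep the strand, so reads from Tagln and these genes cannot be told apart there. The same holds for 675 bases of Smtn, 557 of Mylk and 220 of Des, where 13.3%, 4.28% and 5.81% of the stretches were shared.

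Genes with the most similar pair of Cx30-/- ratios were named by their distance from the median of the members, at 0.32 against C57BL6 WT and -0.12 against C57BL6-BALB/c WT. Among 4986 genes with at least 1000 normalized counts in every library, outside the members, Med1, Fhl1, Sphk2, Pdlim5 and Nipbl were the nearest, with distances of 0.02 to 0.05 on the log2 scale over 3 libraries. Of those 4986 genes, 558 (11.2%) lay as near as the median member did, at 0.28, so this pattern was common.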

How the data were processed

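Vessel RNA was sequenced as 50-base single reads. The authors trimmed and filtered the reads with Eoulsan, aligned them with Bowtie against mm10, discarded multiply matching reads, and deposited a raw count of alignments per transcript. The files also gave that count as a fraction of 1 library total, deposited by the authors and not used as a measurement here, and the bases without a read. File positions do not match GRCm38 (1.57% of starts were the same), so their build is unknown and coordinates come from GENCODE M21 through transcript identifiers, which named 83.8% of 82813 rows.

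Each gene took its row with the largest total count (for Smtn, the longer of 2 tied rows). The Smtn row used is annotated as a processed transcript, and the tied row, with the same counts, as protein coding. Scaling used median-of-ratios size factors, the method of the study's own software. Alternatives were other scalings, rows, minimums, a pseudocount and a 1.5-fold threshold. Differences were called at 2-fold with 50 normalized counts in at least 1 library compared, without pseudocount. Intervals are exact, binomial for ratios and Poisson for levels (scipy 1.17.1). edgeR 4.0.16 (filterByExpr, TMM, quasi-likelihood test, R 4.3.3) set Cx30-/- against both wild types, and DESeq2 1.42.0 was an alternative. The steps were tested on simulated data. Named were all members, list genes past 2-fold against either wild type, the highest and lowest of each list by the Cx30-/- ratio nearer 0, its 3 most abundant, and the 5 genes nearest the members' median. 1 gene that this rule names is not reported here. Members, lists and rules were chosen with earlier results of these data known.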

Additional observations from a re-analysis of the deposited data

Results flagged for a closer look

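Opposite directions against the 2 wild-type libraries, with both counting intervals off 0, drew attention to 4 genes. They are Acta2, Myh11, Tagln and Lmod1, all higher in Cx30-/- than in C57BL6 WT vessels and lower than in C57BL6-BALB/c WT vessels. The log2 difference between their 2 ratios was 0.56 for Acta2, 0.74 for Myh11, 0.49 for Tagln and 0.62 for Lmod1. Because both comparisons share the Cx30-/- library, this difference equals the log2 ratio between the wild types. It was not tested, as each group is 1 library. By size alone, the order lowest in C57BL6 WT and highest in C57BL6-BALB/c WT was found for 12.8% of 14971 genes. The share of all genes with both intervals off 0 as well was not computed.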

How the results depend on the processing

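Other scalings (TMM, total count, upper quartile), longest or summed transcript rows, pseudocounts and count minimums left 0 members past 2-fold in each comparison. The same held against both wild types. Single rows of Actg2 that were not used did pass 2-fold between the wild types, as given above. A threshold of 1.5-fold gave 1 member against C57BL6 WT, 2 against C57BL6-BALB/c WT and 4 between the wild types. The median over the members ran from 0.31 to 0.34, from -0.12 to -0.060 and from 0.46 to 0.54 in the same order, -0.060 being the value with total-count scaling. Without division by length, the share of Acta2 was 23.4% in C57BL6 WT, 24.6% in C57BL6-BALB/c WT and 21.6% in Cx30-/- vessels. In the test of genotype, 0 members were called by DESeq2, with RLE normalization, with no filter, with the longest row or with the sum of rows, and their lowest adjusted p ran from 0.791 to 0.999. Over all genes those settings called 11, 35, 135, 47 and 19, against 9. With no count minimum, 3812, 4958 and 3983 genes differed 2-fold, against 395, 1293 and 507, and with the minimum in both libraries 229, 961 and 330. Settings for single genes and lists were chosen after seeing the data. Total-count scaling turned Des between the wild types to -0.030, and the sum of rows turned Actg2 against C57BL6 WT to 0.0043. The median of the list of regulators of the contractile genes became -0.050 against C57BL6-BALB/c WT with the longest row. That of the striated muscle list became 0.034 against C57BL6 WT with the sum of rows. For these reversals the cause was not tested. No paired analysis was possible because each group has 1 library and the labels carry no replicate numbers. Leaving out a wild-type library gives the comparisons already reported. Depth limits Actg2 most, with 93 to 167 counts.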

Other observations

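Cnn1 had more counts in C57BL6-BALB/c WT than in C57BL6 WT vessels (1069 against 715), yet more of its bases had no read (748 against 492 of 2368). Des, with 1722 and 2084 counts, had 715 and 626 of 3028 bases without a read in the same libraries.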
